A study of Mus musculus with 4 samples.

Results

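The genes described here are 6 markers of fetal and regenerative intestinal epithelium: Clu, S100a6, Anxa3, Anxa1, Ly6d and Ly6a. They were found by symbol or synonym in the platform's probe table. That table named a probe for 5 of the 6 genes, 1 probe each, out of 16390 named genes on the array. No probe was named for Ly6a, so Ly6a is not analysed here. Their levels were compared in 4 sorted samples, with 1 array in each group.

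All mice were male and carried 1 Dclk1CreERT2 allele (Dclk1CreERT2/+), a Cre allele named for Dclk1. The tumor mice also carried ApcMin/+, a mutant Apc allele that starts Wnt-driven intestinal adenomas. The Dclk1- tumor sample came from 1 mouse aged 17 weeks, and the Dclk1+ tumor sample was pooled from 7 mice aged over 16 weeks. The Dclk1- normal sample came from the small intestine of 1 mouse aged 26 weeks, and the Dclk1+ normal sample was pooled from 2 mice of that age. Per the labels' protocols, GFP expression was the gate for Dclk1+ tumor cells, and no source used here gives the gates of the other samples. Histology, age and Apc genotype change together between tumor and normal samples and cannot be told apart. Within each tissue the Dclk1+ and Dclk1- samples also differ in the number of mice pooled, which cannot be told apart from the fraction. With 1 array per group there is no replicate and no test, and every difference below is one between 2 arrays.

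The adult intestinal lining normally renews from Lgr5-expressing stem cells at the crypt base. After injury, and in parts of adenomas, crypt cells can instead switch on genes of the fetal gut, a change tied to the Hippo pathway effectors YAP and TAZ. Clusterin, a secreted chaperone encoded by Clu, marks rare "revival" stem cells that appear in damaged crypts. S100a6 encodes calcyclin, a small calcium-binding protein. Anxa3 and Anxa1 encode annexins, which bind membranes in the presence of calcium, and annexin A1 is also secreted as a ligand of formyl peptide receptors. Ly6d and Ly6a encode small surface proteins held by a lipid anchor. Ly6a, also called Sca-1, is a widely used marker of the fetal-like state.

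Levels are given on 2 scales. The normalised intensity is the value that the authors deposited, linear and scaled within each array. The log2 level is computed here from the scanner's spot brightness, with an added offset of 50 that compresses dim signals, and all log2 differences use it. Spots more than 2 SD brighter than the average blank spot of their array count as above background. The lowest log2 level of a probe above background was at least 5.76 on all 4 arrays. Between 63.3% and 70.9% of 23473 probes were above background. As a check of the labels, the summed normalised intensity of 22 tuft cell markers was 25194 in the Dclk1+ and 541 in the Dclk1- tumor sample. In normal tissue it was 99456 and 467. All 11 epithelial markers with a probe were above background on all 4 arrays. They summed to 19567 and 28960 in the Dclk1- and Dclk1+ tumor samples, and to 58598 and 95909 in the Dclk1- and Dclk1+ normal samples. In each fraction 6 of the 11 were at least 2-fold lower in tumor and 0 higher. Of all genes, 5.24% were that much lower and 5.83% higher in Dclk1- cells, and 4.2% and 4.27% in Dclk1+ cells. The SD between probes of 1 gene was 0.39 log2 for the fraction contrast in tumor and 0.79 for that in normal tissue. For tumor against normal it was 0.51 in the Dclk1+ and 0.71 in the Dclk1- fraction. This is the spread between different probes on the same pair of arrays. It does not measure the variation between arrays, sorts or mice, which cannot be estimated here.

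Across the 5 genes with a probe, the tumor samples had the higher signals, and among tumor cells the Dclk1- sample was the brighter for 4 of the 5. For tumor against normal, all 5 genes were at least 2-fold higher in Dclk1- cells and 4 of 5 in Dclk1+ cells, the exception being Ly6d. Over all genes above background on either array, 5.83% and 4.27% were that much higher, and 5.24% and 4.2% that much lower, with none of the 5 members among the latter. These comparisons share no array. The 4 genes Clu, S100a6, Anxa3 and Anxa1 passed 2-fold in both, as did 289 of the 11742 genes above background in both comparisons, or 2.46%. The median log2 difference of the 5 genes was 2.54 in Dclk1- and 2.52 in Dclk1+ cells, against -0.01 in each over all genes.

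**Figure D1:**
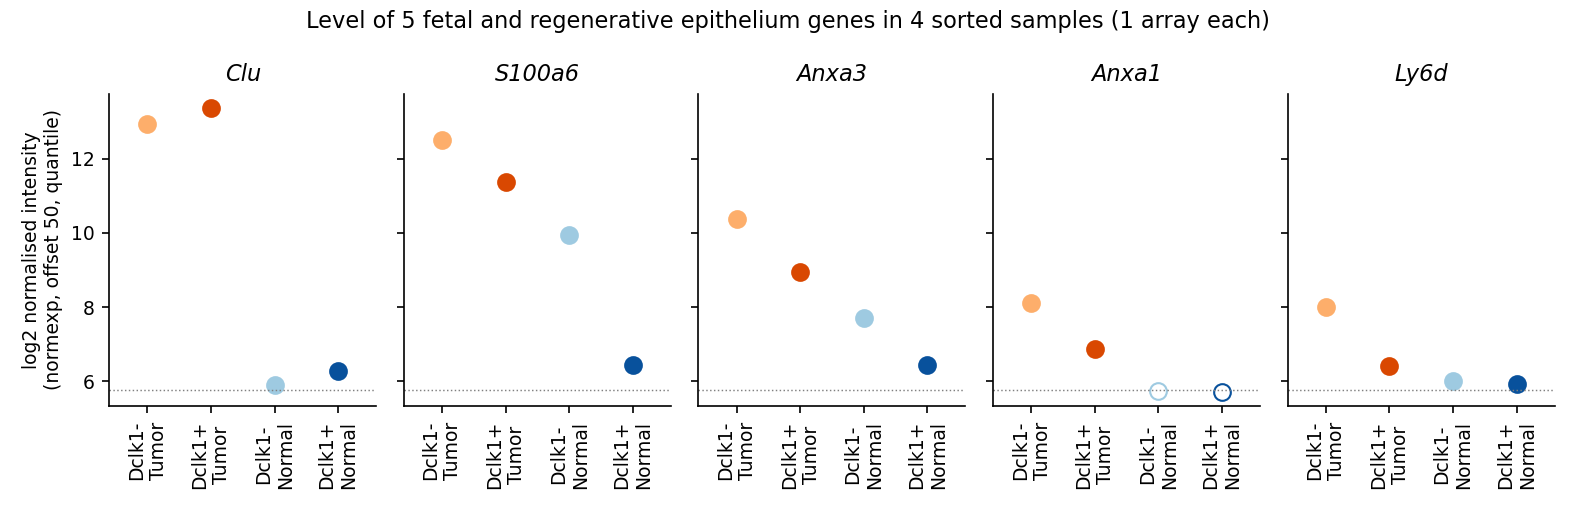
Log2 level (y axis) of each gene in the 4 samples (x axis), 1 point per array; open points were not above background and the dotted line is the mean over arrays of the lowest level above background. Clu is high in both tumor samples, while S100a6 and Anxa3 step down through the samples in the order drawn.

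Clu had the widest range. Its normalised intensity was 8689 and 14492 in the Dclk1- and Dclk1+ tumor samples, and 9.65 and 35.4 in the Dclk1- and Dclk1+ normal samples. Both tumor samples were thus far above both normal samples, in which the spot was still 6.80 and 24.1 SD above the blank spots in Dclk1- and Dclk1+ cells. On the log2 scale Clu was 7.04 higher in tumor in Dclk1- cells and 7.11 higher in Dclk1+ cells, the rank 2 of 12340 and of 12869 genes above background. The ratio of deposited intensities was larger, 901 in Dclk1- and 409.6 in Dclk1+ cells, because no offset compresses the normal values there.

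Between Dclk1+ and Dclk1- cells Clu differed by less than 2-fold on the log2 scale, by 0.44 in tumor and 0.37 in normal tissue, in both cases with the Dclk1+ sample brighter. The tumor difference is close to the SD between probes of 1 gene, 0.39, and the normal one is below its SD of 0.79. The deposited intensities gave a ratio of 1.67 in tumor and of 3.67 in normal tissue. With the local background around each spot subtracted, the tumor difference turned to -0.32. The Clu spot was 1.20 times as bright as the scanner's local background in Dclk1- tumor and 1.15 times in Dclk1+ tumor, where that background was 7316 and 8314. The median local background of all probe spots was only 22.8 and 21.1 on these arrays. S100a6 likewise had a local value of 3946 beside a spot of 6429 in Dclk1- tumor, and 21.1 beside 49.1 in Dclk1+ normal. Local background was thus high beside these bright spots, and whether it holds spot signal was not tested. With the local value subtracted, the Clu tumor excess was 4.96 in Dclk1- and 4.50 in Dclk1+ cells.

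S100a6 followed a graded order. Its normalised intensity was 6333 and 3384 in the Dclk1- and Dclk1+ tumor samples, and 1216 and 48.3 in the Dclk1- and Dclk1+ normal samples. The Dclk1+ normal sample stood apart at the low end, and within each tissue the Dclk1- cells gave the brighter spot. On the log2 scale S100a6 was lower in Dclk1+ cells by -1.12 in tumor and by -3.52 in normal tissue. The tumor value was -0.72 with local background subtracted and -0.90 with the deposited table, both within 2-fold. The tumor excess was correspondingly 4.94 in Dclk1+ cells, rank 11 of 12869, and 2.54 in Dclk1- cells, rank 61 of 12340. Each tumor difference shares its arrays with the fraction differences, so these values are one pattern.

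Anxa3 had the same order of samples, with a normalised intensity of 1345 and 578 in the Dclk1- and Dclk1+ tumor samples, and 198 and 49.0 in the Dclk1- and Dclk1+ normal samples. Each step down was more than 2-fold in the log2 values. Anxa3 was lower in Dclk1+ cells by a similar amount in both tissues, -1.43 in tumor and -1.26 in normal, the latter -0.83 with local background subtracted. Its tumor excess was also similar in both fractions, 2.52 in Dclk1+ and 2.68 in Dclk1- cells, though the former was 1.78 with local background subtracted. For S100a6 the Dclk1+ value lay further below in normal tissue than in tumor. Whether the 2 genes differ in this could not be tested.

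Anxa1 was above background in the tumor samples only. Its normalised intensity was 253 in Dclk1- tumor and 83.0 in Dclk1+ tumor, and the deposited table lists no value for either normal sample. The normal spots lay 0.68 and 0.10 SD above the blank spots in Dclk1- and Dclk1+ cells. Against the dimmest level that counts as above background there, Anxa1 was at least 5.09-fold higher in Dclk1- tumor and at least 2.15-fold higher in Dclk1+ tumor. Such bounds, here and below, hold for the log2 levels as computed here and can be lower under other settings. Between the tumor samples it was lower in Dclk1+ cells by -1.26 log2. With the local background subtracted its log2 excess was 1.53 in place of 2.38 in Dclk1- cells, and 0.24 in place of 1.15, within 2-fold, in Dclk1+ cells.

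Ly6d was dim outside 1 sample. Its normalised intensity was 233 and 42.8 in the Dclk1- and Dclk1+ tumor samples, and 15.2 and 12.5 in the Dclk1- and Dclk1+ normal samples. Dclk1- tumor thus stood above the other 3, and the normal samples differed by only -0.07 log2. In tumors Ly6d was lower in Dclk1+ cells by -1.59, rank 70 from the lowest of 12197 genes. Its tumor excess was 2.01 in Dclk1- cells and 0.48 in Dclk1+ cells. Because dim values are compressed, the deposited ratio of Dclk1+ tumor to Dclk1+ normal was 3.44, past 2-fold.

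**Figure D2:**
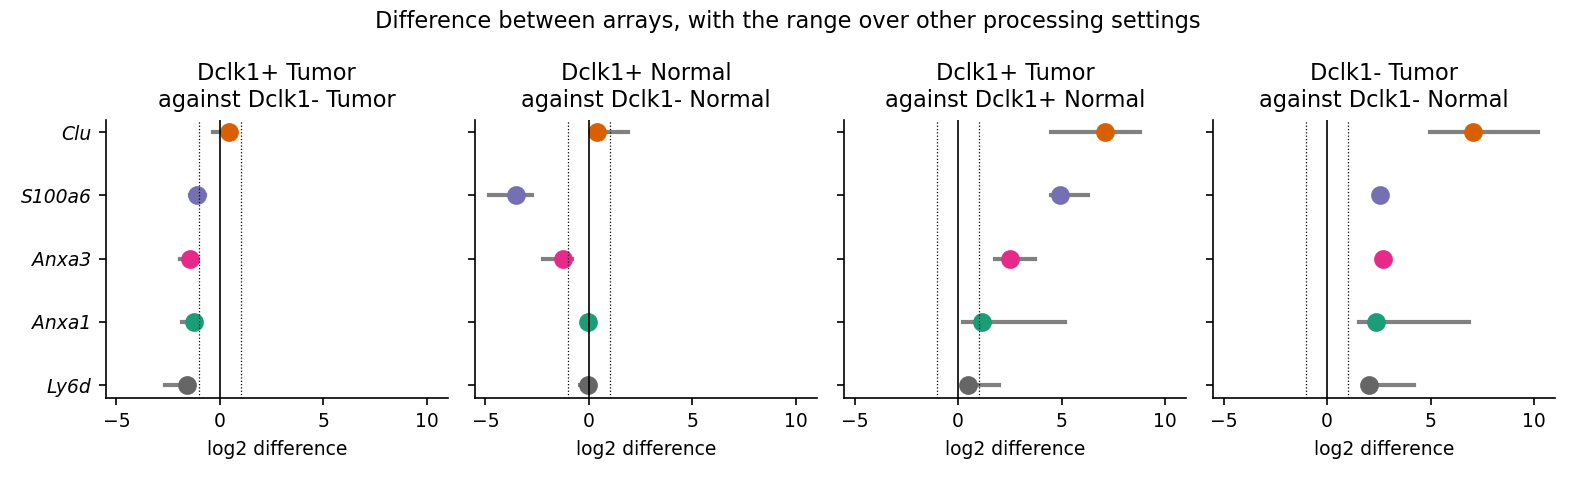
Log2 difference (x axis) of each gene (y axis) in the 4 comparisons, 1 panel each; points are the values in the text, grey bars the lowest to highest value under the other processing settings, and dotted lines mark 2-fold. In the first panel the Clu point lies at 0.44 with a bar that reaches -0.32, and all 5 genes lie to the right of 0 in both tumor against normal panels.

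Between the fractions in tumors, 4 of 5 genes were 2-fold or more lower in the Dclk1+ sample and 0 had a 2-fold excess, where 2.13% of 12197 genes were lower by that much and 1.76% higher. The values were -1.12 for S100a6, -1.26 for Anxa1, -1.43 for Anxa3 and -1.59 for Ly6d, with Clu at 0.44, or -0.32 with local background subtracted. In normal tissue 4 of the 5 passed the filter on dim spots, and 2 of them, S100a6 and Anxa3, were lower, against 5.92% of 12844 genes, and 0 were higher, against 5.66%. Clu and Ly6d were within 2-fold there, and Anxa1 was not above background in either sample.

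**Figure D3:**
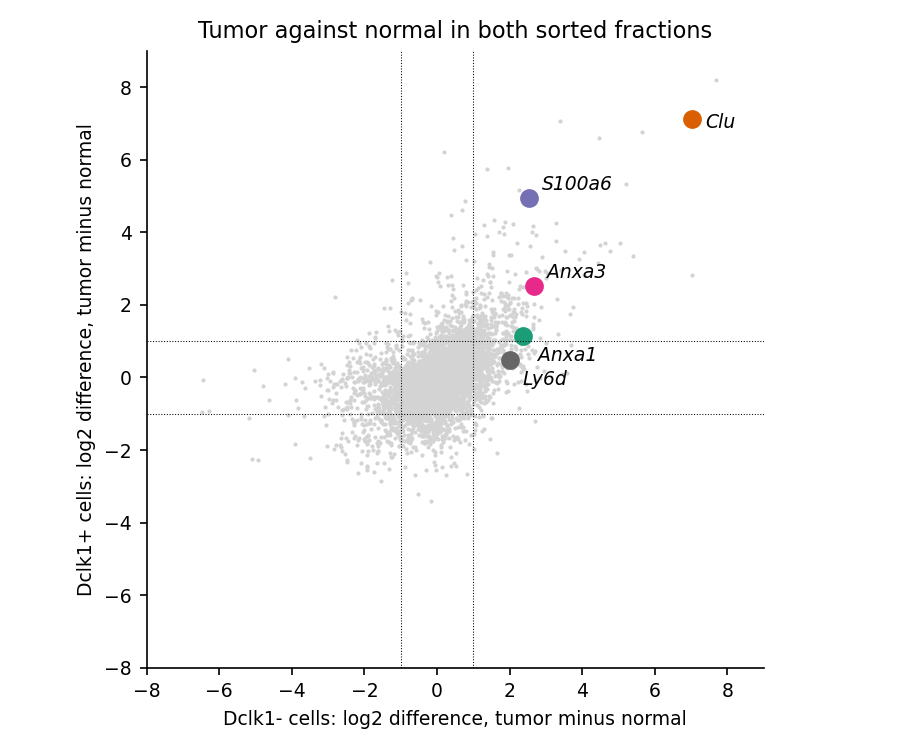
Log2 difference between tumor and normal in Dclk1- cells (x axis) and Dclk1+ cells (y axis) for 11742 genes above background in both comparisons, in grey, with the 5 named genes in colour; dotted lines mark 2-fold. Clu lies at 7.04 and 7.11, S100a6 above the diagonal at 2.54 and 4.94, and Anxa1 and Ly6d below it.

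The members also differed in which genes had the most similar pattern over the 4 samples. Likeness was the root mean squared difference of mean-centred log2 levels, over 13464 other genes. For Clu the nearest were Wfdc18 (0.45), the gastric gene Gkn3 (0.51) and Tenm4 (0.98). Gkn3 stood at 5875 and 13980.1 in the Dclk1- and Dclk1+ tumor samples, and 73.4 and 59.1 in the Dclk1- and Dclk1+ normal samples, so that it too was brightest in Dclk1+ tumor cells. For S100a6 the nearest was another member of its own family, S100g (0.26), the intestinal calcium-binding protein calbindin-D9k, before Tedc2 (0.39) and the metallothionein Mt1 (0.46). For Anxa3 they were Pabpc1 (0.15), Tnfrsf12a (0.23), the receptor of the cytokine TWEAK, and the metallothionein Mt2 (0.29).

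For Anxa1 the nearest genes were Chil3 (0.08), a chitinase-like protein of macrophages, Serping1 (0.11), the inhibitor of complement C1, and Vim (0.12), the intermediate filament vimentin of mesenchymal and blood cells. For Ly6d they were Sirpb1a (0.07), F3 (0.11), which encodes tissue factor, and Ptn (0.11), the growth factor pleiotrophin. Vim had a normalised intensity of 343 and 92.5 in the Dclk1- and Dclk1+ tumor samples, and 15.2 and 22.2 in the Dclk1- and Dclk1+ normal samples. Among the members, Anxa1 and Ly6d were the closest pair (0.29) and Clu was at least 2.23 from each of the others. Distances among dim genes are smaller, since the offset compresses them.

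Markers of other cell types also differed between the samples. Among epithelial lineages, the Paneth cell list had a probe for Defa5, Itln1, Mmp7, Ang4, Pla2g2a and Guca2a. How specific these genes are to Paneth cells was not tested. These 6 markers summed to 27593 and 15911 in the Dclk1- and Dclk1+ tumor samples, and to 15381 and 456 in the Dclk1- and Dclk1+ normal samples. The order was that of S100a6 and Anxa3, but the Dclk1+ tumor and Dclk1- normal sums were nearly level, unlike either gene. In the tumor pair 4 of the 6 Paneth markers were at least 2-fold lower in the Dclk1+ sample, and in the normal pair 5 of 6. So were 5 of 10 goblet and 8 of 16 enterocyte markers in the tumor pair, and 7 of 10 and 10 of 16 in the normal pair. Higher in the Dclk1+ sample were 1 goblet marker in the tumor pair and 1 enterocyte marker in the normal pair. The shares of all genes that much lower were 2.13% in the tumor and 5.92% in the normal pair. Those higher were 1.76% and 5.66%. Between the Dclk1+ samples, 5 of 6 Paneth and 6 of 10 goblet cell markers were higher in tumor and 13 of 22 tuft cell markers were lower. Between the Dclk1- samples, 3 of 6 Paneth and 3 of 10 goblet cell markers were higher in tumor, 4 of 10 goblet and 10 of 16 enterocyte markers were lower, and the enterocyte sum was 23485 in tumor and 90735 in normal tissue. For all genes the shares higher and lower in tumor were 4.27% and 4.2% between the Dclk1+ samples. Between the Dclk1- samples they were 5.83% and 5.24%. The part of these lineages in the members' differences was not tested.

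Lists of cells outside the epithelium differed as well. The summed normalised intensity of 15 myeloid markers was 4923 and 2109 in the Dclk1- and Dclk1+ tumor samples, and 894 and 3233 in the Dclk1- and Dclk1+ normal samples. In tumors 4 of the 15 were lower in the Dclk1+ sample by 2-fold or more and 0 higher, against 2.13% and 1.76% of all genes. In Dclk1- cells 8 of 15 were higher in tumor and 0 lower, against 5.83% and 5.24%. The macrophage complement gene C1qb stood at 1813 in Dclk1- tumor and 778 in Dclk1+ tumor, and at 230 and 877 in Dclk1- and Dclk1+ normal. Ptprc (70.5 against 14.8), Csf1r (45.0 against 34.4) and Cd68 (29.5 against 26.9) were brighter in Dclk1+ than in Dclk1- tumor, within 2-fold on the log2 scale. Adgre1 and Itgam were not above background on any array. The 16 fibroblast and smooth muscle markers summed to 833 and 453 in the Dclk1- and Dclk1+ tumor samples and to 115 and 189.5 in the normal ones, of which Vim gave 343 and Acta2 191 in Dclk1- tumor. In the tumor pair Vim was the 1 of 16 at least 2-fold lower in the Dclk1+ sample and 0 were higher, with the same all-gene shares. Pdgfrb was brighter in Dclk1+ tumor, at 63.3 against 38.1 in Dclk1- tumor, and so were Fn1, Lum and Myh11 in deposited intensity. Col1a1 was above background only in the Dclk1+ sample of that pair. Of this list, Tagln, Des and Postn were not above background on any array. Above it in tumor samples only were Dcn (43.6 in Dclk1- and 6.35 in Dclk1+ cells), Acta2 (191 and 119), Pdgfra (57.6 and 53.0) and Fn1 (46.7 and 54.5).

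The 13 neutrophil markers summed to 3105, 1793, 218 and 592 in the same order, and Csf3r, Cxcr2 and Mmp9 were not above background on any array. The neutrophil list's Lcn2, which injured epithelium also makes, gave 1630.0 of the Dclk1- tumor sum. The 14 endothelial markers summed to 381, 311, 139 and 262, with Pecam1 and Cdh5 not above background on any array. Anxa1 is known to be abundant in neutrophils and macrophages. Their part in the members' differences was not tested either, and in such bulk samples fewer cells of a type and less RNA per cell cannot be told apart.

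**Figure D4:**
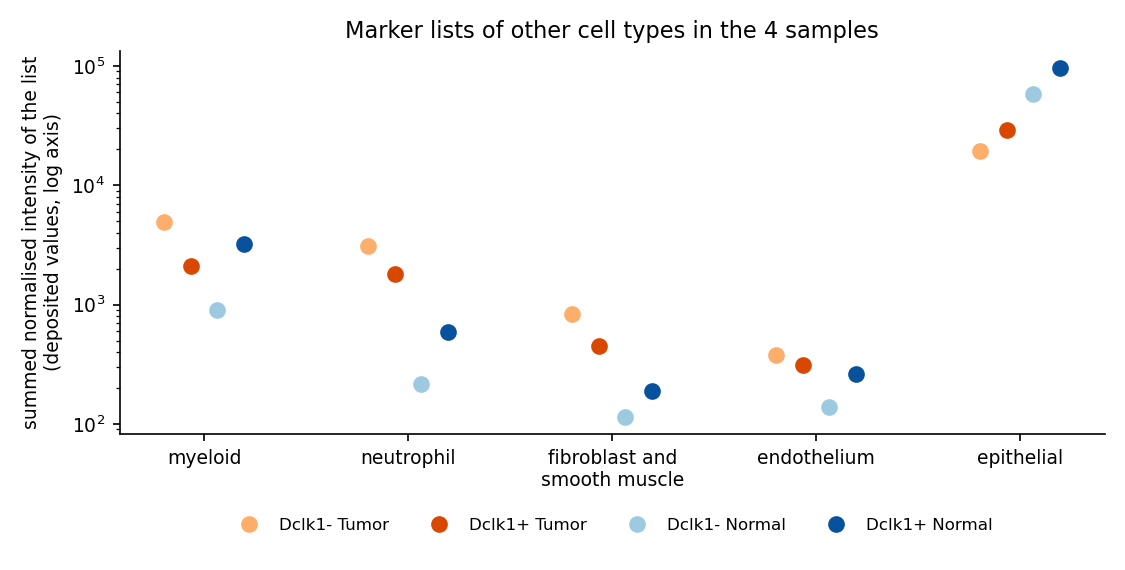
Summed deposited normalised intensity (y axis, log scale) of 5 marker lists (x axis) in the 4 samples, 1 point per array. The myeloid, neutrophil, fibroblast and endothelial sums are highest in Dclk1- tumor, and the epithelial sum is highest in Dclk1+ normal.

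Within the annexin family, 9 genes beside the 2 members had a probe. Anxa8 and Anxa10 were the 2 that were higher in tumor in Dclk1- cells, against 5.83% of all genes. Anxa8 had a normalised intensity of 415.5 and 68.6 in the Dclk1- and Dclk1+ tumor samples and 3.34 in the Dclk1+ normal sample, and was not above background in Dclk1- normal, so that it was at least 7.90-fold higher in Dclk1- tumor than there. With local background subtracted that log2 difference was 2.11. Anxa10 stood at 737 and 369 in the Dclk1- and Dclk1+ tumor samples, and 6.53 and 180.6 in the Dclk1- and Dclk1+ normal samples. Both had less signal in the Dclk1+ sample of the tumor pair, by -2.04 for Anxa8 and -1.20 for Anxa10, and 0 of the 9 were higher. In that pair 2.13% of all genes were lower and 1.76% higher. Anxa2, an abundant annexin that pairs with S100a10, was lower in Dclk1+ normal cells (-1.61) and higher in tumor in Dclk1+ cells (1.10, or 0.75 with the deposited table). The median difference of the 9 was 0.12 between the Dclk1+ and -0.02 between the Dclk1- samples of tumor and normal tissue, beside -0.01 over all genes.

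The S100 list had 13 other genes with a probe. Of these, S100g and S100a8 were at least 2-fold higher in tumor in both fractions, against 2.46% of all genes above background in both. S100a8, also a neutrophil gene, was at 2.04 in Dclk1- and 1.15 in Dclk1+ cells, or 0.86 and 0.74 with local background subtracted. S100g had 23401 and 11095 in the Dclk1- and Dclk1+ tumor samples, and 5287 and 264 in the Dclk1- and Dclk1+ normal samples. S100a1 ran the other way between fractions, at 3.09 in tumor and 3.73 in normal tissue for Dclk1+ against Dclk1- cells, with 4690.1 in Dclk1+ normal and 197.6 in Dclk1- normal. S100b (1.09) was also higher in Dclk1+ tumor cells, or 0.72 with local background subtracted. S100a13 (2.35) and S100a11 (1.38, or 0.83 with local background subtracted) were also higher in Dclk1+ normal cells. S100a10, the partner of annexin A2, was lower in Dclk1+ cells by -1.26 in tumor and by -1.37 in normal tissue, and these were -0.89 with the deposited table and -0.57 with local background subtracted. S100a4, found in fibroblasts and blood cells, was 1.81 higher in Dclk1- tumor than in Dclk1- normal, where it was not above background. This is a difference of at least 3.49-fold, and the log2 value was 1.71 with local background subtracted.

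The Ly6 list, which includes relatives such as Lypd8 and the urokinase receptor Plaur, had 25 other genes with a probe. The probe that the array names Ly6c, assigned to Ly6c1, had 3041 and 1272 in the Dclk1- and Dclk1+ tumor samples, and 594 and 49.5 in the Dclk1- and Dclk1+ normal samples. It was the 1 gene of the 25 at least 2-fold higher in tumor in both fractions, where 2.46% of all genes were. The values were 2.56 in Dclk1- and 3.61 in Dclk1+ cells, the latter 0.97 with local background subtracted. Genes of this family are close in sequence, and a probe can bind the RNA of several. Lypd8, a protein that keeps flagellated bacteria from the epithelium, went the other way in Dclk1- cells, at -1.89, and Ly6m at -3.02. In the tumor pair Lypd8 (-2.27), Ly6c1 (-1.48) and Plaur (-1.16) were lower in Dclk1+ cells and 0 of the 25 were higher. The all-gene shares there were 2.13% lower and 1.76% higher, so 0 higher is near the share. In the normal pair Ly6m (-3.78), Lypd8 (-3.38) and Ly6c1 (-2.53) were lower, against 5.92% of all genes. With local background subtracted, Ly6c1 was within 2-fold in the normal pair, at -0.42, and Ly6m was at -1.23 there and at -1.22 between the Dclk1- samples.

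**Figure D5:**
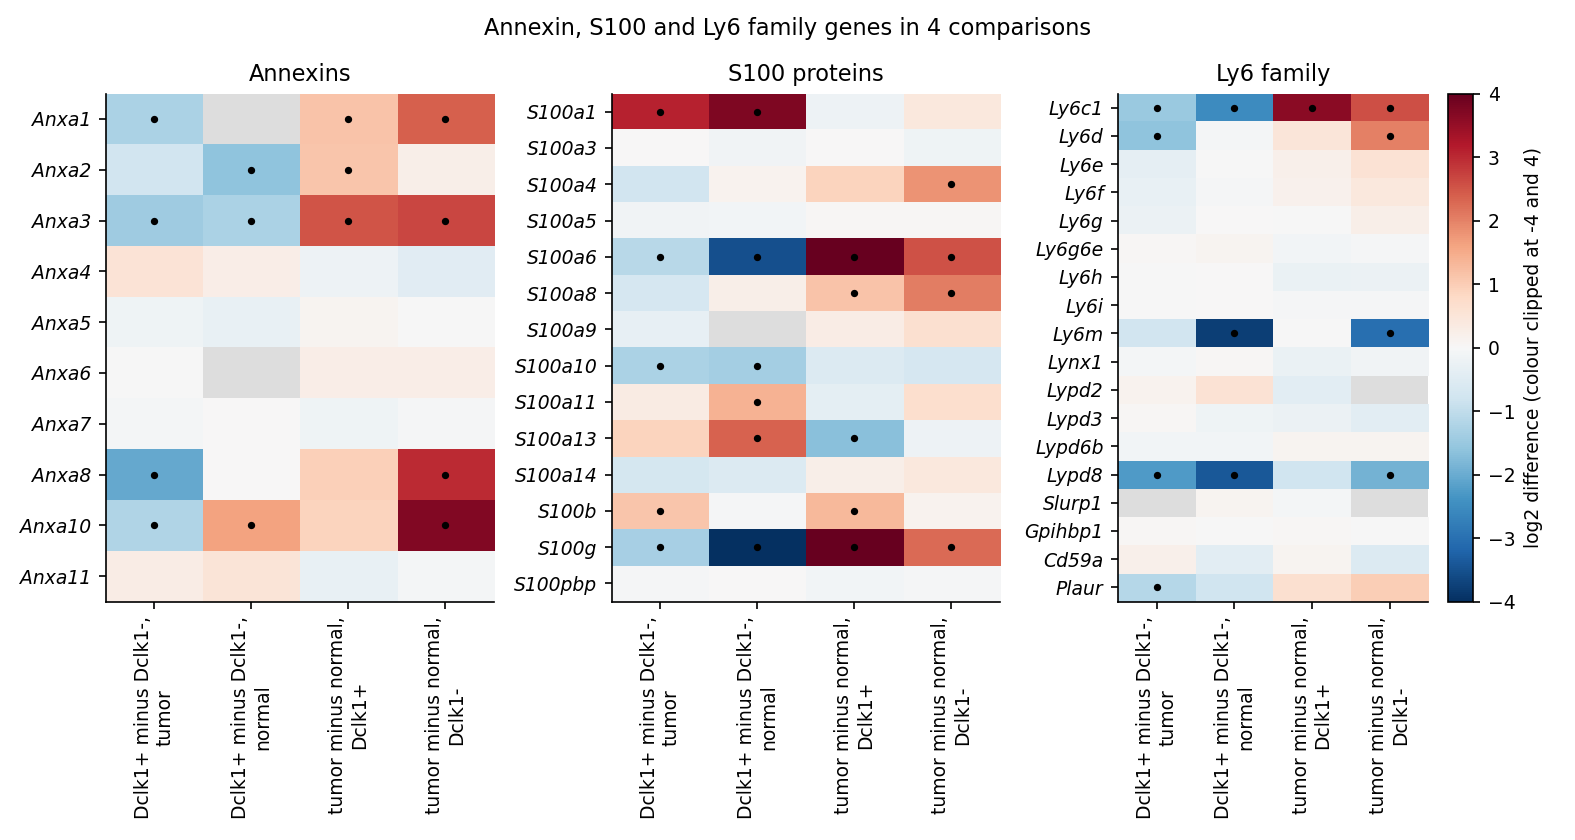
Log2 differences (colour) of the annexin, S100 and Ly6 genes with a probe above background (rows) in the 4 comparisons (columns); black dots mark genes at least 2-fold apart and grey cells those not above background on either array. Most rows are pale. S100a6, S100g, Anxa3 and Ly6c1 have dots in all 4 columns. These genes are lower in Dclk1+ cells in both tissues and higher in tumor in both fractions.

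Among other genes known from fetal or regenerating epithelium, a smaller number was higher in tumor. Of 17 with a probe, 13 were above background in each tumor against normal comparison, and 4 were at least 2-fold higher in tumor in Dclk1- and 3 in Dclk1+ cells, with 0 lower. The shares of all genes that much higher were 5.83% and 4.27%. The 3 in Dclk1+ cells were Il33, Tnfrsf12a and Msln, and they were higher in both fractions, where 2.46% of all genes were. Il33, an alarmin cytokine, stood at 956 and 1071 in the Dclk1- and Dclk1+ tumor samples, and 279.6 and 8.52 in the Dclk1- and Dclk1+ normal samples. The tumor excess of Tnfrsf12a was 2.16 in Dclk1- and 2.85 in Dclk1+ cells, and that of mesothelin, Msln, 1.06 and 1.27, the latter 0.56 with local background subtracted. The other in Dclk1- cells was F3, at 1.79, or 0.27 with local background subtracted. Between the tumor samples F3 (-1.41, or -0.16 with local background subtracted) and Plaur (-1.16), which is on both lists, were lower in Dclk1+ cells and 0 of 17 were higher. In the normal pair Il33 (-2.21) and Tnfrsf12a (-1.53) were lower and 0 were higher. The all-gene shares lower and higher were 2.13% and 1.76% in the tumor pair, and 5.92% and 5.66% in the normal pair.

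Several genes of that list that YAP is known to induce were dim. Ccn1, which YAP induces in many cells, had 8.58 and 3.55 in the Dclk1- and Dclk1+ tumor samples, and 22.4 and 5.38 in the Dclk1- and Dclk1+ normal samples. Ccn2 had 13.1 and 29.2 in the Dclk1- and Dclk1+ tumor samples, and 4.09 and 3.64 in the Dclk1- and Dclk1+ normal samples, so that it was brighter in tumor in both fractions, within 2-fold on the log2 scale. Ankrd1 was above background only in Dclk1- tumor, at 17.3. Ereg, Gja1 and Il1rn were not above background on any array. The median difference of the 17 genes was 0.05 for tumor against normal in each fraction, and a 2-fold change in genes this dim can be missed on the log2 scale.

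Of 16 Hippo pathway genes with a probe, Wwtr1 was the 1 at least 2-fold higher in tumor in both fractions. Among all genes above background in both comparisons 2.46% were that much higher, so this count is not far from the share. Wwtr1, which encodes TAZ, had 325 and 166.5 in the Dclk1- and Dclk1+ tumor samples and 4.65 in the Dclk1+ normal sample, and was not above background in Dclk1- normal. The differences were 2.67, or at least 6.29-fold, in Dclk1- and 1.67 in Dclk1+ cells. With local background subtracted they were 2.14 and 1.45 log2. Yap1 was between 4.46 and 5.56 on 3 arrays and not above background in Dclk1- tumor. Vgll4 (1.44) and the transcription factor Tead1 (1.07) were higher in tumor in Dclk1- cells, and Tead1 was 0.50 with the mean of its probes. The kinase gene Lats2 was lower in Dclk1+ tumor cells (-1.08), while Tead1 (1.72, or 0.96 with the mean of its probes) and Stk4 (1.34) were higher in Dclk1+ normal cells.

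RefSeq promoter windows (GRCm38.p6) were at hand for 2 of the 6 genes, Anxa1 and S100a6, which were both at least 2-fold higher in tumor in both fractions. They are shown to compare the letters before the start site of these 2 genes, 250 bases each, on the gene's strand. The Anxa1 window is chr19:20390672-20390921 (minus strand) and the S100a6 window is chr3:90612644-90612893 (plus strand). Capitals mark matches to the motifs searched on both strands.
Anxa1: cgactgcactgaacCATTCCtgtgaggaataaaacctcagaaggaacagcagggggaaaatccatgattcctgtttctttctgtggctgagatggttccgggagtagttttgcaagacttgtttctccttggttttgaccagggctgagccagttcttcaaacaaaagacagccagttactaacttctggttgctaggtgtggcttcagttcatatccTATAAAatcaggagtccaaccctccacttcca
S100a6: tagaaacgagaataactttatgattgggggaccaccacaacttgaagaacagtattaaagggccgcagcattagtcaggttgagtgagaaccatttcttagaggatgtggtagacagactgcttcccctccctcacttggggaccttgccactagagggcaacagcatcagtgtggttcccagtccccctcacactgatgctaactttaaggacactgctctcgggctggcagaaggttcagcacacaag
The motifs were GGAATG for TEAD factors, the DNA-binding partners of YAP and TAZ, TGANTCA for AP-1, CTTTGAT for TCF/LEF and TATAAA for the TATA box. The Anxa1 window holds 1 TEAD match, on the opposite strand, whose first base lies at -236 from the start site, and 1 TATA box match at -32. The S100a6 window holds none of the 4. Of 32851 windows of this length, 12.6% hold the TEAD letters, 6.75% the AP-1, 3.21% the TCF/LEF and 12.4% the TATA letters, so a match is common and is only a description of the letters.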

How the data were processed

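One-colour Cy5 arrays of 4 sorted samples were analysed. Per the file headers, the scanner files hold the median intensity of each spot, joined over several gains and not background-subtracted. The authors deposited a second table of intensity values, scaled per array to a median near 25 with empty cells for dim probes. Its scale and centring are not stated in the labels; against the scanner values it is linear, and brighter is higher. Background was corrected on all spots with normexp in limma 3.58.1 (R 4.3.3, offset 50), control and flagged spots were dropped, and the arrays were brought to 1 distribution by quantile normalization before taking log2. Genes were called at 2-fold if above background (blank mean plus 2 SD) on either array. Symbols of 16631 probes came from the platform table, which can be old, and were updated through RefSeq; 6842 probes are unnamed here. For the 229 genes with several probes the brightest was used. The number of arrays limits the precision. The script was tested on simulated data. The members and gene lists were chosen with earlier results of these data known. In each companion list genes at least 2-fold apart were named, up to 6 a comparison by size, and for each member the 3 genes of most similar pattern.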

Additional observations from a re-analysis of the deposited data

Results flagged for a closer look

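Anxa10 differed in opposite directions between fractions in the 2 tissues. It was lower in Dclk1+ than in Dclk1- cells in tumor (-1.20 log2) and higher in normal tissue (1.62). The normalised intensity was 369 against 737 in tumor and 180.6 against 6.53 in normal tissue. With local background subtracted the differences were -0.79 and 1.11. The difference between the tissues was not tested, since each group has 1 array. Among the 5 members and the 86 companion genes with a probe it was the 1 gene at least 2-fold apart both ways.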

How the results depend on the processing

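Of 11 alternatives, 7 can change a member's difference. No member past 2-fold changed sign under any of them, and 134 of 140 member differences under these 7 kept their sign. Those that did not were Clu in the tumor pair (-0.32 with local background subtracted) and Anxa1 and Ly6d in the normal pair. The cause was not tested. Members lower in Dclk1+ cells numbered 4 in tumor and 2 in normal tissue, against 0 and 1 at 4-fold, and 3 and 1 with local background subtracted. With the deposited table the tumor count was also 3, without S100a6. For tumor against normal in Dclk1+ cells, Anxa1 was within 2-fold with local background subtracted, at 0.24. Ly6d was past 2-fold there with the blank mean subtracted, at 1.99. In Dclk1- cells the lowest member value over all settings was 1.53, for Anxa1. With blank subtraction or the deposited table, 1 member, Clu, was 2-fold higher in Dclk1+ normal cells, against 0. The all-gene count rose there as well, to 2195 and 2996 from 727 of 12844 genes. All-gene counts depend on the compression of dim signals. They are given as higher and lower, for Dclk1+ against Dclk1- in tumor and in normal, then for the tumor excess of the Dclk1+ and of the Dclk1- fraction. They were 215 and 260, 727 and 760, 549 and 540, and 719 and 647, of 12197, 12844, 12869 and 12340 genes above background. At 4-fold they were 53 and 35, 207 and 277, 150 and 54, and 144 and 161. With the blank mean subtracted they were 1341 and 1752, 2195 and 2246, 1994 and 2379, and 2320 and 2311. With the deposited table they were 2220 and 1366, 2996 and 2058, 1743 and 3494, and 1804 and 3609. With an offset of 16 the tumor pair gave 406 and 565, the Dclk1+ pair 952 and 886 and the Dclk1- pair 1157 and 1008. Without background correction these were 369 and 503, 885 and 815, and 1094 higher. In the tumor pair, median scaling gave 143 and 440, and local background subtraction 388 higher. The share of higher genes in the tumor pair was 45.3%, against 24.5% with median scaling and 61.9% with the deposited table, whose shares in the other 3 comparisons were 59.3%, 33.3% and 33.3%, against 48.9%, 50.4% and 52.6%. The median of all genes above background in the deposited table was 0.35, 0.27, -0.40 and -0.50 log2, and 75th percentile scaling put it at 0.13 and 0.14 in the Dclk1+ against Dclk1- pairs. Blank subtraction put it at -0.12 and -0.15 for tumor against normal. All 54 differences past 2-fold of companion genes kept their sign. No paired analysis was possible because each group has 1 array. No array can be left out for the same reason.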

Other observations

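Genes for partners of the member proteins were mostly level. Of 9 with a probe, 1 was at least 2-fold higher in tumor in both fractions, against 2.46% of all genes. This was Vldlr, a lipoprotein receptor that can bind clusterin. Its normalised intensity was 219 and 365 in the Dclk1- and Dclk1+ tumor samples, and 22.4 and 22.7 in the Dclk1- and Dclk1+ normal samples, and the log2 differences were 1.82 in Dclk1- and 2.24 in Dclk1+ cells. As with Clu, the Dclk1+ sample was the brighter of the tumor pair. Lrp8, a related receptor, was not above background on any array, and Lrp2 lay between 10.8 and 27.8. Cacybp, which encodes the calcyclin-binding protein, was higher in Dclk1+ normal than Dclk1- normal cells (1.07), opposite to S100a6, and higher in Dclk1- tumor than Dclk1- normal cells (1.15, or 0.90 with the deposited table). Fpr1, a formyl peptide receptor, was brighter in the normal samples (75.1 in Dclk1- and 57.0 in Dclk1+ cells) than in the tumor samples (29.3 and 24.9), within 2-fold on the log2 scale.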
